A study of Saccharomyces cerevisiae with 12 samples.

Results

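TIR1, TIR2, TIR3, TIR4, DAN1 and DAN4 encode cell wall mannoproteins that Saccharomyces cerevisiae makes when oxygen is absent. Their probe sets were chosen by platform gene symbol, and all 6 genes were found, each with 1 probe set, among the 5449 genes of the array analysis. The study measured transcripts on 12 Affymetrix Yeast Genome 2.0 arrays, 1 for each steady-state chemostat culture. Cultures of the laboratory strain CEN.PK113-7D and of the industrial wine strain EC1118 were grown at 15 °C or at 30 °C, which made 4 groups of 3 biological replicates. Every culture was anaerobic, limited by nitrogen, fed minimal medium with anaerobic growth factors, and held at a dilution rate of 0.05 per h, so no aerobic group was available for reference. EC1118 differs from CEN.PK113-7D in its whole genome, ploidy and mating type, so a strain difference cannot be assigned to a single allele.

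Proteins of this family are rich in serine and threonine, carry O-linked mannose and are anchored to the wall through a GPI remnant. In aerobic cells Cwp1 and Cwp2 take that place in the wall, and the exchange for Tir and Dan proteins accompanies the shift to anaerobic growth. Upc2, a sterol-responsive zinc cluster factor, activates the TIR and DAN genes without oxygen, while Rox1 and Mot3, with the Tup1-Cyc8 co-repressor, keep them off when heme is made. TIR1 and TIR2 are also known as cold shock genes (their synonyms are SRP1 and SRP2), which makes the pair of temperatures of interest here.

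Array medians ran from 329 to 371 intensity units and replicates correlated with r from 0.975 to 0.994 (across genes, not independent points). Precision is limited by there being 3 arrays in a group. Replicate 3 of CEN.PK113-7D at 15 °C had the lowest mean correlation with the other arrays of its group, 0.978, and the other 11 arrays lay between 0.984 and 0.991. Replicate 2 of EC1118 at 30 °C was at 0.985, lowest in its own group but no lower than arrays of other groups. Results are given with and without this pair of arrays, which was chosen after the data, the members' values among them, had been seen. The strain labels were checked against mating type genes: all 5 a-specific and all 4 haploid-specific genes were lower in EC1118 at both temperatures. ANB1, HEM13 and AUS1, genes known for anaerobic expression, were above the floor of 10 on every array, ANB1 between 1149 and 3216. So were most genes, 5237 of the 5449 even with the members left out, so this is no check of anaerobic growth.

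TIR1, TIR3 and TIR4 are the members known to be needed for anaerobic growth. TIR1 (YER011W, on chromosome V) read 5052, 4344 and 2908 in CEN.PK113-7D at 15 °C and 6214, 5523 and 5225 at 30 °C. In EC1118 it read 6056, 5657 and 4717 at 15 °C and 6204, 5320.3 and 6076 at 30 °C. TIR1 was thus bright on all arrays, with a 2.14-fold range, and its lowest value came from replicate 3 of the cold laboratory strain. The brightest probe set of an array read between 7573 and 8057, and whether intensities near that top are compressed was not tested.

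TIR3 (YIL011W, on chromosome IX) read 3299, 2407 and 878 in CEN.PK113-7D at 15 °C and 4903, 4565 and 4066 at 30 °C. The EC1118 arrays gave 4961, 4083 and 3132 at 15 °C and 4930.1, 2628 and 4351 at 30 °C. The cold laboratory strain lay below its 30 °C cultures without overlap, while the EC1118 temperatures overlapped. TIR4 (YOR009W, on chromosome XV) read 4489.9, 3187 and 1017 in CEN.PK113-7D at 15 °C against 5659.8, 5122 and 4692 at 30 °C. Its EC1118 values were 6247, 5666 and 4648 at 15 °C and 6344, 4497 and 5600.1 at 30 °C. For TIR4 the cold CEN.PK113-7D group lay below each of the other 3 groups without overlap.

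TIR2 (YOR010C, on chromosome XV) is the cold shock gene whose group means did not follow TIR1. It read 2124, 1952 and 914 in CEN.PK113-7D at 15 °C and 2916, 2359.7 and 1747 at 30 °C. In EC1118 the order of the temperatures was turned, with 3126, 2671 and 1554 at 15 °C and 1855, 383 and 1100.3 at 30 °C. All neighbouring groups in the order of TIR2 means overlapped, from 2450.5 ± 809 (SD, n = 3) in EC1118 at 15 °C down to 1113 ± 736 in EC1118 at 30 °C.

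DAN1 (YJR150C, synonym CCW13, on chromosome X), the family's namesake for anaerobic expression, had the narrowest range of the 6, 1.94-fold over the 12 arrays. It read 4444, 4174 and 3069 in CEN.PK113-7D at 15 °C and 4643, 4087 and 3677 at 30 °C. Its EC1118 values were 5007, 4481 and 3190.5 at 15 °C and 4456, 2576 and 3948 at 30 °C. The 4 group means lay between 3660.3 and 4226, and every group overlapped its neighbours in that order.

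DAN4 (YJR151C, on chromosome X), the longest gene of the set at 3486 bases in the RefSeq annotation, had the widest range, 15.7-fold. It read 200.3, 148 and 179 in CEN.PK113-7D at 15 °C and 1762, 1525 and 787 at 30 °C. In EC1118 single arrays of 1 temperature lay far apart, with 2024, 1106 and 186 at 15 °C and 2323, 296 and 915 at 30 °C. Cold CEN.PK113-7D was the only group in which all 3 arrays were low, and replicate 3 of EC1118 at 15 °C fell within that group's range.

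**Figure D1:**
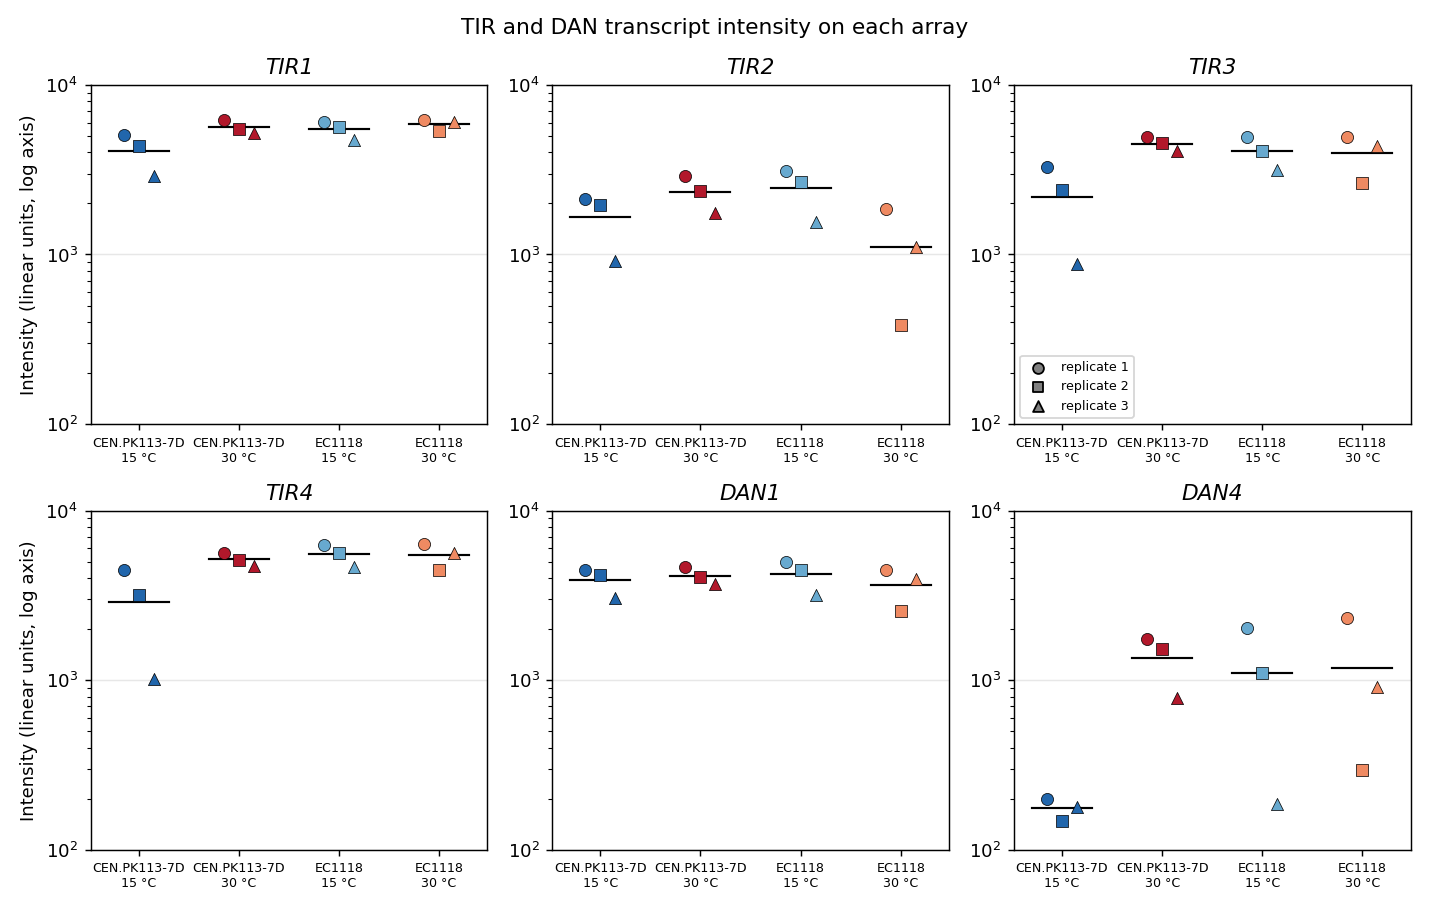
Intensity (linear units on a log axis) of each of the 6 genes on each of the 12 arrays, by strain and temperature. Symbols stand for replicate numbers and bars for the mean of 3 arrays. DAN4 read 148 to 200.3 on the 3 arrays of CEN.PK113-7D at 15 °C and spread between 186 and 2024 in EC1118 at that temperature.

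Within a group the members went up and down together. Replicate 1 was the highest of its group in all 4 groups for 6 of 6 members. Taken group by group, 29.5% to 30.1% of all genes were highest there, and their share over all 4 groups jointly was not counted. The lowest array was replicate 3 in CEN.PK113-7D at 15 °C, CEN.PK113-7D at 30 °C and EC1118 at 15 °C, and replicate 2 in EC1118 at 30 °C. All 6 members were lowest on those arrays except DAN4 in the cold laboratory strain, where replicate 2 was lowest. Of all genes, 23.4% to 30.6% were lowest there in a given group, and 1.93% in all 4 groups. The arrays counted were those where most members were highest or lowest. The members' own agreement was thus partly fixed in advance, and these shares are no test of it. The replicate numbers stand for cultures and have no order.

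The spread that this produced was wide for the family. DAN4 had a residual SD of 1.21 on the log2 scale, larger than that of 99.9% of genes, where the median gene had 0.133. TIR2 had 0.744, TIR4 0.589, TIR3 0.582, DAN1 0.315 and TIR1 0.242. The size of the spread differed by group: for TIR4 the highest array was 4.42-fold above the lowest in CEN.PK113-7D at 15 °C and 1.21-fold above it at 30 °C. For TIR2 that ratio was largest in EC1118 at 30 °C, at 4.85-fold.

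Some other genes of anaerobic life followed the same arrays. Among the 10 hypoxic genes of a list chosen by function, 6 (ANB1, AAC3, HEM13, AUS1, PDR11 and ARE1) were highest and lowest on the same arrays as the members in all 4 groups, as were 0.789% of all genes. COX5B, CYC7, HMG2 and OLE1 were not. CYC7 ran the other way at 1 end, lowest in all 4 groups on the array where the members were highest. Genes of other lists did so too, among them SPT23, SPI1 and GPI8, and the share of all genes was not counted. AUS1, an importer of sterols, read 1934, 1578 and 715 in CEN.PK113-7D at 15 °C and 3744, 3001 and 2406 at 30 °C. In EC1118 it read 2210.4, 1388 and 480.4 at 15 °C and 2042, 429 and 958 at 30 °C, low on the arrays where the members were low. HEM13, which encodes coproporphyrinogen oxidase of heme synthesis, ranged from 1730 to 3662 with the same lowest array in each group.

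Of 11 listed regulators, 2 ran the other way at both ends in all 4 groups, the repressor genes ROX1 and MOT3. The regulator gene SPT23 did so at 1 end, as CYC7 did, and the co-repressor genes TUP1 and CYC8 did not. The reference arrays in these counts were set by the members themselves. ROX1 was highest in every group on the array where most members were lowest, with 143, 153 and 220 in CEN.PK113-7D at 15 °C and 85, 233 and 345 at 30 °C. In EC1118 ROX1 read 109, 169 and 412 at 15 °C and 236, 412 and 296 at 30 °C, again lowest in replicate 1. MOT3 showed the same opposite order at low intensities, between 51 and 203. Among 14 other wall mannoproteins 1 was opposite in all 4 groups, CWP2, while CWP1 was not. CWP2 went from 4028 in replicate 1 to 5514 in replicate 3 of the cold laboratory strain. Of all genes, 8.20% were highest in all 4 groups on the arrays where the members were lowest. The 1 of 14 wall mannoproteins, 7.14%, did not exceed that share.

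Array scale moved with this pattern. In each group the array with the lowest members had the highest median intensity, for example 341 against 329 and 330 in CEN.PK113-7D at 15 °C. With every array centred on its median, the 5 members TIR1 to TIR4 and DAN1 were again lowest on those arrays in all 4 groups, where 6.37% of all genes were lowest after centring and 1.93% before it. ROX1 and CWP2 were also opposite in all 4 groups after centring, where 4.29% of all genes were, and MOT3 was not. The part of oxygen, sampling or RNA handling in these differences between cultures was not tested.

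**Figure D2:**
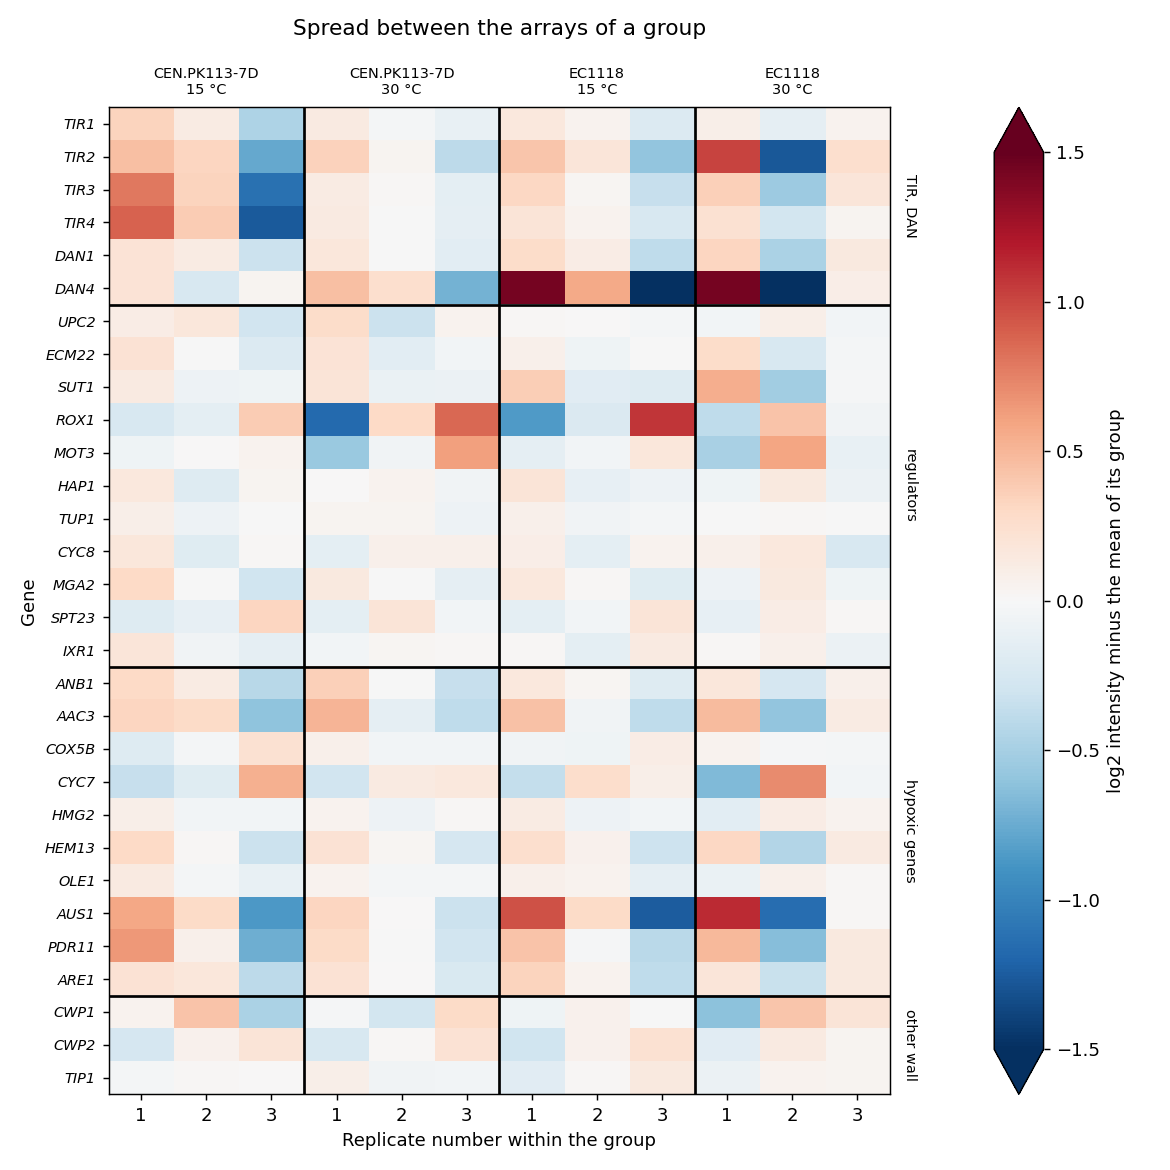
Log2 intensity minus the mean of its group (colour, in log2 units) for 30 genes in rows and the 12 arrays in columns, 3 replicates in each group. Colours end at 1.5 in either direction. The 6 members, AUS1, PDR11 and HEM13 are above their group mean in replicate 1 of each group, while ROX1 and CWP2 are below it there.

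The first comparison asked how growth at 15 °C changed the family in CEN.PK113-7D. Of 6 members, 3 were lower in the cold (TIR1, TIR3 and DAN4) and 0 were higher, where 36.6% of all genes were lower, 21.8% higher and 58.5% called in either direction. Intensities are relative to the labelled RNA of a culture, so fewer cells that express a gene and less of its RNA per cell cannot be told apart. DAN4 changed most, from 1358 ± 509 (SD, n = 3) at 30 °C to 176 ± 26.5 at 15 °C, a log2 change of -2.88 ± 0.88 (SE, limma adjusted p = 0.0165). TIR3 fell 2.35-fold (log2 change -1.24 ± 0.42, limma adjusted p = 0.0281), and TIR1 fell from 5654 ± 507 to 4101 ± 1092.

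TIR4 measured a log2 change of -1.07 ± 0.43 and missed the threshold (limma adjusted p = 0.0514), although its groups did not overlap. TIR2 measured -0.56 ± 0.54 and DAN1 -0.10 ± 0.23. The 2 temperatures did not overlap for 4 of 6 members, and for 62.8% of all genes. The members' median log2 change was -0.82, and that of all genes -0.11. The count of members called is therefore close to the share of the whole array.

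Leaving out single cultures changed several calls. Without replicate 3 at 15 °C, TIR3 measured -0.67 (limma adjusted p = 0.0613), TIR4 -0.44, TIR1 -0.27 and DAN1 0.07, and DAN4 was the only member called. TIR3 also missed the threshold when any 1 of the 30 °C replicates was left out (limma adjusted p from 0.0505 to 0.0717) or with the compared groups alone (0.0743), and DAN4 without replicate 2 at 15 °C (0.0502) or replicate 1 at 30 °C (0.0516). The DAN4 log2 change itself lay between -3.23 and -2.65 whichever array was left out. TIR1 missed the threshold with centred arrays (limma adjusted p = 0.111), with quantile normalization (0.0894) or with the compared groups alone (0.0940), and also without replicate 2 at 15 °C (limma adjusted p = 0.0502) and without replicates 1 or 2 at 30 °C. TIR4 was called without replicate 1 at 15 °C (-1.51, limma adjusted p = 0.00884). Without replicate 3 of CEN.PK113-7D at 15 °C and replicate 2 of EC1118 at 30 °C together, TIR3 (-0.67, limma adjusted p = 0.0197) and DAN4 (-2.90, limma adjusted p = 0.0241) were lower.

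In EC1118 no member passed the threshold between temperatures: limma called 0 of 6, with 1 at an unadjusted p under 0.05, where 54.2% of all genes were called, 24.2% higher and 30% lower. TIR2 came nearest, 2450.5 ± 809 at 15 °C and 1113 ± 736 at 30 °C, a log2 change of 1.35 ± 0.54 (limma adjusted p = 0.0555). The 2 temperatures overlapped for all 6 members, and did not overlap for 62.7% of all genes. The 95% interval of the change ran from -0.50 to 0.30 for TIR1, from -0.94 to 0.96 for TIR4 and from -2.14 to 1.75 for DAN4.

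TIR2 was called in EC1118 without replicate 1 at 30 °C (1.86, limma adjusted p = 0.0145), without replicate 3 at 15 °C (1.65, limma adjusted p = 0.0426), without the laboratory strain's replicate 3 at 15 °C (limma adjusted p = 0.0455) and with centred arrays (1.43, limma adjusted p = 0.0416). Without replicate 2 at 30 °C, where it read 383, the change was 0.72. DAN4 depended on the array left out, with 0.81 without replicate 3 at 15 °C and -0.97 without replicate 2 at 30 °C.

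At 15 °C the strain comparison asked whether the cold wine strain differed from the cold laboratory strain. All 6 members measured higher in EC1118, as did 3128 of all 5449 genes. Limma called 0 of 6 (4 at an unadjusted p under 0.05), where 33.1% of all genes were called, 19% higher and 14% lower. TIR4 read 5521 ± 809 in EC1118 and 2898 ± 1755 in CEN.PK113-7D, a log2 difference of 1.17 ± 0.43 (limma adjusted p = 0.0597) without overlap, as for 44.9% of genes. DAN4 measured 2.10 ± 0.88, TIR3 1.06 ± 0.42 and TIR1 0.45 ± 0.18. The same CEN.PK113-7D cultures entered this comparison and the first one.

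Replicate numbers deviated together between the strains at 15 °C, as described with the processing, and with the number as a block 3 members passed: TIR1 (limma adjusted p = 0.0366), TIR4 (0.0376) and TIR3 (0.0486), with DAN4 at 0.0563. Without replicate 1 of CEN.PK113-7D the same 3 were called, TIR4 with a log2 difference of 1.61. Without replicate 3 of EC1118, which read 186 for DAN4, the DAN4 difference was 3.10 (limma adjusted p = 0.0121). Without replicate 3 of CEN.PK113-7D the TIR4 difference was 0.53. Without that array and replicate 2 of EC1118 at 30 °C, TIR4 was the member called (0.53, limma adjusted p = 0.0457).

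At 30 °C the strains were not separated by any member: limma called 0 of 6 (1 at an unadjusted p under 0.05), where 41.4% of all genes were called, 21% higher and 20.4% lower, and all 6 overlapped, while 54.9% of genes did not. TIR1 read 5867 ± 478 in EC1118 and 5654 ± 507 in CEN.PK113-7D. TIR2 measured lower in EC1118, with a log2 difference of -1.31 ± 0.54 (limma adjusted p = 0.0743), which was -1.82 and called without EC1118 replicate 1 (limma adjusted p = 0.0217) and -0.68 without replicate 2. The 95% interval ran from -0.35 to 0.45 for TIR1 and from -0.87 to 1.03 for TIR4.

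Affymetrix designed this array from the laboratory reference strain, so between strains a different transcript level and a different match of probe and transcript cannot be told apart.

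The interaction asked whether the temperature change differed between strains. Limma called 0 of 6 members (1 at an unadjusted p under 0.05), where 13% of all genes were called, 8.66% with a positive and 4.37% with a negative difference. All 6 differences measured positive (a change from 30 °C to 15 °C that is more upward in EC1118), as did those of 3029 of all 5449 genes. The members varied together between arrays, so these are not 6 separate agreements. DAN4 measured 2.68 ± 1.24 (SE, limma adjusted p = 0.188), TIR2 1.91 ± 0.76 (0.132) and TIR3 1.29 ± 0.60 (0.188). DAN4 was called without EC1118 replicate 3 at 15 °C (3.69, limma adjusted p = 0.0405). Without replicate 3 of CEN.PK113-7D at 15 °C and replicate 2 of EC1118 at 30 °C, the DAN1 difference was -0.08, TIR2 measured 0.89 and TIR4 0.32.

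**Figure D3:**
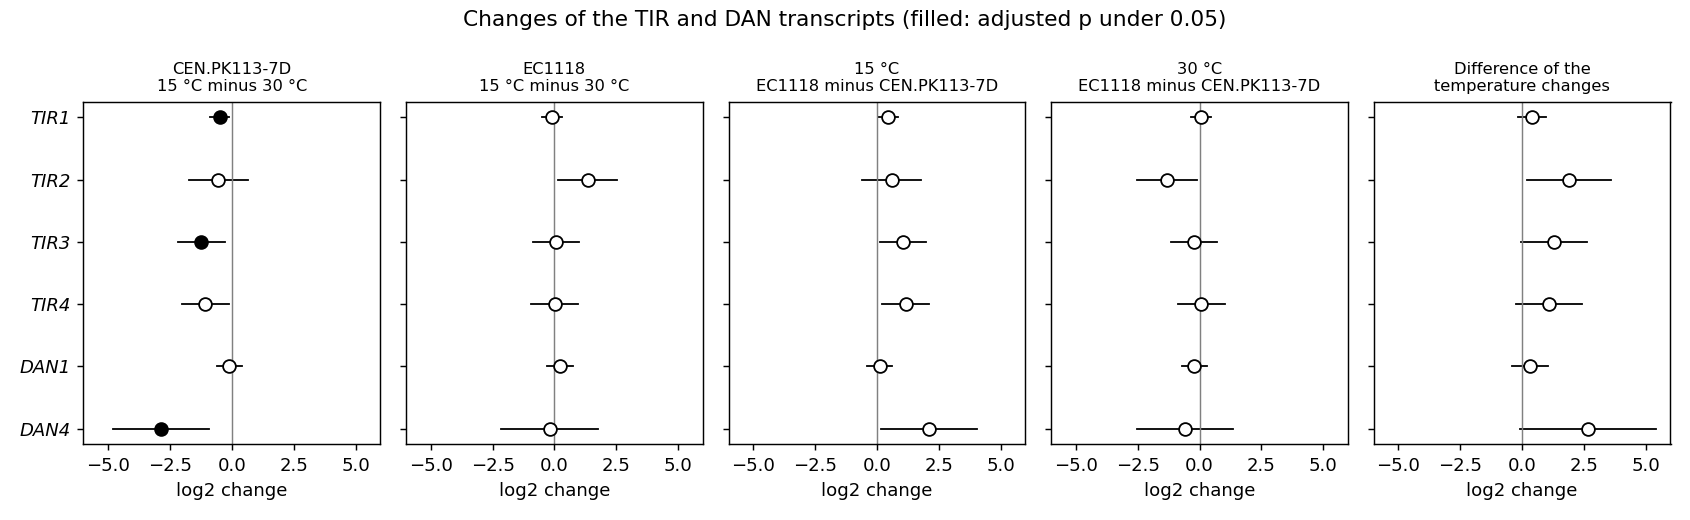
Log2 change of each member in the 5 comparisons, with 95% intervals that are not adjusted for the number of genes. Filled points had a limma adjusted p under 0.05: TIR1, TIR3 and DAN4 in CEN.PK113-7D, and none in the other comparisons.

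Most listed regulators were lower in the cold. In CEN.PK113-7D 9 of 11 fell at 15 °C and 0 rose, where 36.6% of all genes fell and 21.8% rose, with a median log2 change of -0.79 against -0.11 for all genes. In EC1118 6 fell and 0 rose, where 30% of all genes fell and 24.2% rose (median -0.41, all genes -0.04). UPC2, the activator gene, in the laboratory strain was 765 ± 155 at 30 °C and 442 ± 72.8 at 15 °C (log2 change -0.79 ± 0.15, limma adjusted p = 0.00126). In EC1118 UPC2 was 803 ± 40.6 and 513 ± 8.76 (-0.65 ± 0.15, limma adjusted p = 0.00442). The heme-responsive activator HAP1 fell 2.67-fold and 2.42-fold, and MGA2, an activator of the desaturase gene OLE1, 2.61-fold and 1.62-fold, in CEN.PK113-7D and EC1118.

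The repressors ROX1 and MOT3 did not pass the threshold with temperature in either strain. ROX1 measured -0.17 ± 0.55 in CEN.PK113-7D and -0.64 ± 0.55 in EC1118. MOT3 measured 0.48 ± 0.30 and -0.41 ± 0.30, and without CEN.PK113-7D replicate 3 at 30 °C it was higher in the cold in that strain (0.79, limma adjusted p = 0.0339). The co-repressor gene TUP1 fell by 0.38 and 0.37 on the log2 scale, a call lost in CEN.PK113-7D with quantile normalization (-0.17, limma adjusted p = 0.0559). SUT1, a regulator of sterol uptake, was lower in EC1118 than in CEN.PK113-7D at 30 °C, 125 ± 46.2 against 296 ± 36.2 (log2 difference -1.30 ± 0.24, limma adjusted p = 0.00172).

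Of the 10 hypoxic genes, 6 fell in CEN.PK113-7D at 15 °C and 0 rose (median log2 change -0.58), where 36.6% of all genes fell and 21.8% rose. In EC1118 3 fell and 1 rose (median 0.00), near the 30% and 24.2% of all genes. PDR11, the second sterol importer of the list, went from 1487 ± 296 to 405 ± 182 in CEN.PK113-7D (log2 change -1.96 ± 0.38, limma adjusted p = 0.00128). COX5B, the hypoxic isoform of a cytochrome oxidase subunit, fell 2.63-fold in CEN.PK113-7D and 1.58-fold in EC1118. AAC3, the anaerobic ADP/ATP carrier, rose in EC1118, from 361 ± 126 to 880.0 ± 254 (log2 change 1.31 ± 0.36, limma adjusted p = 0.0101). AUS1 measured -1.21 ± 0.65 in CEN.PK113-7D and 0.27 ± 0.65 in EC1118, and HEM13 -0.51 ± 0.23 and 0.15 ± 0.23. AUS1 and HEM13 missed the threshold in both strains, and HEM13 passed it in CEN.PK113-7D without replicate 1 at 15 °C (-0.66, limma adjusted p = 0.0457), or without EC1118 replicate 2 at 30 °C (limma adjusted p = 0.0440).

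At 15 °C 5 of the 10 hypoxic genes were higher in EC1118 than in CEN.PK113-7D and 1 was lower, where 19% of all genes were higher and 14% lower. ANB1, the anaerobic isoform of translation factor eIF5A, read 2872 ± 357 against 1573 ± 383 (log2 difference 0.89 ± 0.22, limma adjusted p = 0.0108). COX5B was 2.05-fold higher and HMG2, an HMG-CoA reductase, 1.43-fold higher.

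Other wall mannoproteins split by gene. SPI1, a wall protein of stressed and stationary cells, went from 2084 ± 128 to 231 ± 39.9 in the cold laboratory strain and from 1362 ± 479.7 to 437 ± 66.1 in EC1118. TIP1, a cold shock relative of the TIR genes, fell from 5333 ± 297 to 3620.0 ± 67.3 in CEN.PK113-7D (log2 change -0.56 ± 0.08, limma adjusted p = 0.000268) and from 5247 ± 283 to 3697 ± 403 in EC1118 (-0.51 ± 0.08, limma adjusted p = 0.000555). CWP1 went up in the cold in EC1118, from 802 ± 270 to 1540.2 ± 70.4 (2.01-fold, limma adjusted p = 0.0116). In CEN.PK113-7D it measured 0.74 ± 0.28 (log2, limma adjusted p = 0.0422), a call lost without any 1 of several arrays (limma adjusted p up to 0.159). Between strains CWP1 was 3.39-fold higher in EC1118 at 15 °C and 2.82-fold higher at 30 °C, and CWP2 passed the threshold in no comparison. In the whole list 6 of 14 were lower and 1 was higher in the cold laboratory strain, while EC1118 had 2 in each direction. The shares of all genes were 36.6% lower and 21.8% higher in the laboratory strain, and 30% and 24.2% in EC1118, so neither count stood far above them.

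Seripauperins, the PAU proteins, are short relatives of the TIR and DAN proteins, spread over the chromosome ends. Probe names mark how far sequence sharing limits them: all 6 member probe sets carry the plain suffix of a probe set made for 1 transcript. Of 16 seripauperin probe sets, 11 carry the x suffix of probes that also match other sequences and 2 the s suffix of a shared set, and 13 of 24 genes were measured. PAU5 fell in CEN.PK113-7D at 15 °C, from 924 ± 268 to 320.1 ± 96.7 (log2 change -1.54 ± 0.36, limma adjusted p = 0.00427). At 30 °C it was 4.45-fold lower in EC1118. There 5 of the 13 measured seripauperins were lower in EC1118 and 2 higher, where 20.4% of all genes were lower and 21% higher. Of the 13 measured, CEN.PK113-7D had 1 higher (PAU17) and 1 lower (PAU5) in the cold, where 21.8% of all genes were higher and 36.6% lower. EC1118 had 2 higher (24.2% of all genes), PAU4 and PAU18, and neither passed without EC1118 replicate 2 or 3 at 30 °C. Replicate 1 of EC1118 at 15 °C stood far above replicates 2 and 3 for both. PAU4 read 1098 there against 229 and 217, and PAU18 read 1598 against 323 and 297.

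**Figure D4:**
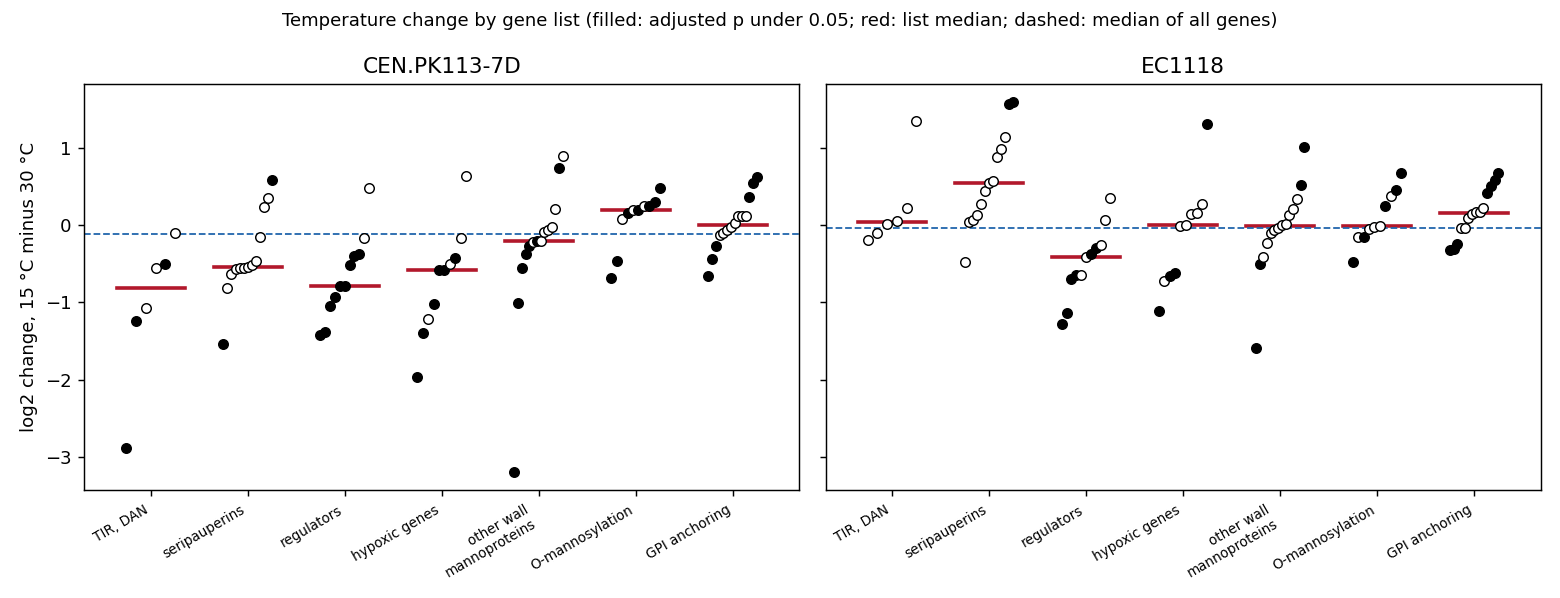
Log2 change at 15 °C relative to 30 °C (vertical axis) of each gene by list, for CEN.PK113-7D on the left and EC1118 on the right. Filled points had a limma adjusted p under 0.05, red bars are list medians and the dashed line is the median of all genes. In CEN.PK113-7D the members' median was -0.82 and that of the regulators -0.79, and in EC1118 they were 0.04 and -0.41.

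Correlations of the members over the 12 arrays are given as descriptions, since arrays of a group share a culture condition. TIR1, TIR3 and TIR4 correlated with each other with Pearson's r from 0.964 to 0.971 in log2 intensity (Spearman's rho from 0.881 to 0.923). TIR2 and DAN1 correlated at 0.899. Pairs of 1 gene from each of these sets ran from 0.358 (TIR1 with TIR2) to 0.620 (TIR3 with DAN1), so the sets were not fully separate. DAN4 ranked the arrays much as TIR3 did (Spearman's rho 0.958) while its Pearson's r with TIR3 was 0.753.

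Outside the family, 5237 genes off the floor on all 12 arrays were compared with each member, and the 3 most alike are named. TDA4 was the first for TIR1, TIR3 and TIR4, with Pearson's r of 0.979, 0.972 and 0.974 and Spearman's rho of 0.916, 0.937 and 0.888. It read 733, 626 and 319 in CEN.PK113-7D at 15 °C and 1002, 818 and 701 at 30 °C, with the lowest array shared with the members. MSH6, a DNA mismatch repair gene, was among the 3 for the same members (r of 0.925, 0.949 and 0.951). The remaining gene was YBL036C for TIR1 (r of 0.933, ahead of MSH6), YML083C for TIR3 and the transporter gene MCH5 for TIR4. For TIR2 they were YSR3, a phosphatase of sphingoid base phosphates (r of 0.892), RKM1 and FHN1. For DAN1 they were FHN1, a gene for a plasma membrane protein (r of 0.887), HEM13 and ERV29. For DAN4 they were HEM14, the next step of heme synthesis after HEM13 (r of 0.903), YPD1 and EFR3, whose own ranges over the arrays were 2.03-fold, 1.49-fold and 1.28-fold against 15.7-fold for DAN4.

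Position pairs some of these genes. In the RefSeq gene order TIR4, TIR2 and AUS1 are consecutive on chromosome XV, and DAN1 and DAN4 are neighbours on chromosome X. Between temperatures in CEN.PK113-7D the log2 change was -2.88 for DAN4 and -0.10 for DAN1, and it was -1.07 for TIR4, -0.56 for TIR2 and -1.21 for AUS1. In EC1118 it was -0.20 for DAN4 and 0.22 for DAN1, and 0.01 for TIR4, 1.35 for TIR2 and 0.27 for AUS1. Of these changes that of DAN4 in CEN.PK113-7D passed the threshold, and differences between neighbours were not tested.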

How the data were processed

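RNA of 12 anaerobic chemostat cultures was hybridised as biotin-labelled cRNA, per the labels' protocols. The authors deposited an intensity on a linear scale for each probe set. How probes were summarised and arrays scaled was not given in the sources used here, and the lowest value, 10, was treated as a floor. Of 5900 probe sets, 5498 had 1 gene, 0 several and 402 were unnamed here, with 12 symbols updated through the RefSeq table of assembly R64 (names and gene order only). The brightest probe set stood for a gene, which left 5449.

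The limma package (version 3.58.1, R version 4.3.3) fitted log2 values of all genes with 1 coefficient per group (lmFit, eBayes, 8 residual and 2.22 prior degrees of freedom). All p-values are two-sided, with Benjamini-Hochberg adjustment over all genes of a comparison and a threshold of 0.05. The fit was tested on simulated data. The members and the lists of related genes were chosen with earlier results of these data known. Named genes were all members, a fixed panel, up to 4 called genes per list, and 3 genes per member by Pearson correlation.

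The alternatives were quantile normalization, median centring, a fit limited to the groups compared, a block for the replicate number, removal of dim genes (the lowest 25%), a pseudocount of 50, trend and robust eBayes, other treatment of a gene's probe sets, and each array left out in turn. The joint omission of replicate 3 of CEN.PK113-7D at 15 °C and replicate 2 of EC1118 at 30 °C was added after seeing the data. Same-numbered arrays deviated together most evenly between strains at 15 °C (correlation of deviations 0.478, 0.320 and 0.393), a pairing seen in the data that no label states. Between strains at 30 °C the values were 0.337, 0.0294 and 0.0386. Each comparison of temperatures had a negative value, -0.24 in CEN.PK113-7D (replicate 2) and -0.108 in EC1118 (replicate 3).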

Additional observations from a re-analysis of the deposited data

Results flagged for a closer look

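A difference between the strains in the temperature response passed the test for 15 of 72 measured genes in 6 lists around the family (20.8%, against 13% of all genes). It passed for 0 of the 6 members (limma interaction, Benjamini-Hochberg over all genes). The lists were chosen with earlier results of these data known, so these shares are no test of enrichment. The naming rule, at most 4 called genes per list, leaves 13 of the 15 genes. Values are the log2 change at 15 °C against 30 °C in EC1118 minus that in CEN.PK113-7D. In the other wall mannoproteins the difference was 0.78 for CIS3, which fell in CEN.PK113-7D (-0.27) and rose in EC1118 (0.52), 0.78 for EGT2, 1.60 for SPI1 and 0.38 for HSP150. Among regulators it was 0.86 for ECM22 and 1.39 for SUT1, both of which fell in CEN.PK113-7D (-0.79 and -1.05) and missed the threshold in EC1118 (0.07 and 0.35). The hypoxic gene COX5B gave 0.74 and the seripauperin PAU5 gave 1.98. For the mannosyltransferase gene KRE2 it was 0.31. Genes of GPI anchor assembly and remodelling gave -0.94 for MCD4, 0.40 for GPI16, 0.43 for BST1 and 0.48 for CWH43, with MCD4 higher in the cold in CEN.PK113-7D (0.62) and lower in EC1118 (-0.32).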

How the results depend on the processing

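The count of members called was 3 between temperatures in CEN.PK113-7D and 0 in the other 4 comparisons. It became 1 in CEN.PK113-7D with the compared groups alone, 1 in EC1118 with the replicate block, centred arrays or dim genes removed, 3 between strains at 15 °C with the replicate block and 1 there with dim genes removed or without replicate 3 of CEN.PK113-7D at 15 °C and replicate 2 of EC1118 at 30 °C together, and 1 between strains at 30 °C with the replicate block. Leaving out 1 array at a time gave 0 to 4 in CEN.PK113-7D, 0 to 1 in EC1118, 0 to 3 between strains at 15 °C, and 0 to 1 both at 30 °C and for the interaction. The replicate block gave 4 in CEN.PK113-7D, where TIR4 passed (limma adjusted p = 0.0313) and so did HEM13 of the hypoxic genes (0.0266). No label pairs those samples, and their deviations correlated at 0.373, -0.24 and 0.162 for replicates 1, 2 and 3. Values that changed sign had not passed the threshold, and the cause was not tested. With quantile normalization TIP1 was 0.053 between strains at 30 °C and -0.039 for the interaction. With centred arrays DAN1 was 0.017 between temperatures in CEN.PK113-7D and TIP1 -0.014 between strains at 15 °C. Without that pair of arrays, DAN1 was 0.065 in CEN.PK113-7D, and in EC1118 TIR3 was -0.22, TIR4 -0.12, DAN1 -0.015, AUS1 -0.30, HEM13 -0.069 and ANB1 -0.12. In that setting DAN1 was -0.053 between strains at 15 °C, TIR3 0.042, DAN1 0.027 and DAN4 0.18 between strains at 30 °C, and the DAN1 interaction was -0.080. Leaving out 1 array at a time gave these ranges of log2 values. Between temperatures in CEN.PK113-7D they ran from -0.20 to 0.065 for DAN1 and from -0.75 to 0.26 for ROX1. In EC1118 they ran from -0.22 to 0.24 for TIR3, -0.12 to 0.13 for TIR4, -0.015 to 0.41 for DAN1, -0.97 to 0.81 for DAN4, -0.30 to 0.89 for AUS1, -0.069 to 0.31 for HEM13 and -0.12 to 0.10 for ANB1. Between strains at 15 °C they ran from -0.053 to 0.30 for DAN1, -0.67 to 0.43 for AUS1, -0.13 to 0.021 for MOT3, -0.31 to 0.65 for ROX1 and -0.049 to 0.11 for TIP1. At 30 °C they ran from -0.0012 to 0.12 for TIR1, -0.41 to 0.042 for TIR3, -0.035 to 0.21 for TIR4, -0.37 to 0.027 for DAN1, -1.30 to 0.18 for DAN4, -0.071 to 0.23 for UPC2 and -0.049 to 0.022 for TIP1. For the interaction they ran from -0.0053 to 0.30 for UPC2, -1.01 to 0.11 for ROX1, -0.042 to 0.48 for CWP1 and -0.025 to 0.13 for TIP1.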

Other observations

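The machinery that glycosylates and anchors wall mannoproteins changed in both directions. Of 10 O-mannosylation genes, 5 were higher and 2 lower in the cold in CEN.PK113-7D, against 3 and 2 in EC1118. Of all genes 21.8% were higher and 36.6% lower in CEN.PK113-7D, and 24.2% and 30% in EC1118. The mannosyltransferase gene PMT4 rose by 0.48 on the log2 scale in CEN.PK113-7D and PMT6 fell by 0.68. Of 14 GPI anchoring genes, the laboratory strain had 3 higher and 3 lower, and the wine strain 4 higher and 3 lower. PER1, which remodels the GPI lipid, rose by 0.55 in CEN.PK113-7D and 0.58 in EC1118. DFG5, a gene for cross-linking GPI proteins to the wall, rose by 0.68 in EC1118.

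SAG1, the alpha-agglutinin gene on the list of mating type alpha markers, was picked out after its values were seen. It read 302, 459.6 and 1380.0 in replicates 1, 2 and 3 of CEN.PK113-7D at 15 °C, highest on the array where TIR1, TIR3 and TIR4 were lowest of all 12. That array was the highest of its group for 47% of all genes.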
